A study of Homo sapiens with 6 samples.

Results

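The albumin family and serum carrier proteins examined here are 6 genes chosen by name, ALB, AFP, GC, TTR, RBP4 and AHSG, out of the 20030 genes of the count table. They were measured by polyA RNA sequencing in HepG2, a human hepatoma cell line, that carried either a lentiviral control shRNA (sh-ctrl) or a lentiviral shRNA directed at KIF11 (sh-KIF11), with 3 libraries in each group. KIF11 is a mitotic kinesin motor that pushes spindle poles apart, and the study asked what its loss does in hepatoma cells. The shRNAs were delivered in the pLKO.1 vector and both groups are stably transduced populations of 1 tumour line. The labels do not say whether the 3 libraries of a group came from separate cultures. Every p-value here therefore judges a group difference against differences between these libraries, which may be technical.

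Hepatocytes secrete most of the protein of blood plasma, and much of it serves to carry small molecules that would otherwise be insoluble or lost through the kidney. Albumin (ALB) binds fatty acids, bilirubin, hormones and drugs. Alpha-fetoprotein (AFP) is its fetal counterpart, silenced after birth and expressed again in many hepatomas, and the vitamin D binding protein (GC) belongs to the same gene family. Transthyretin (TTR) carries thyroxine and, in a complex with retinol binding protein 4 (RBP4), vitamin A. Fetuin-A (AHSG) keeps calcium phosphate in solution and inhibits the insulin receptor. Transcription of these genes in the liver depends on hepatocyte factors such as HNF4, FOXA and C/EBP proteins.

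ALB and AFP lie next to each other on chromosome 4 and are read in the same direction. In the GENCODE 29 annotation of GRCh38, ALB spans chr4:73397114-73421412 on the plus strand, with 15 exons in its first listed transcript. AFP spans chr4:73431138-73456174 on the plus strand with 14 exons, and GC spans chr4:71741693-71804041 on the minus strand with 13. The other genes lie on separate chromosomes, TTR at chr18:31557010-31599021 (plus strand), RBP4 at chr10:93591687-93601744 (minus strand) and AHSG at chr3:186612923-186621318 (plus strand). The RBP4 span overlaps FFAR4 on the opposite strand, which had 0 counts in every library, and the AHSG span overlaps the antisense gene AC068631.1.

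The sequences just before the ALB and AFP start sites are shown because these genes are the neighbours compared most closely below. RefSeq start sites on GRCh38.p14 were used. Each line gives the 150 bases before the start, 5′ to 3′ on the plus strand, the first from chr4:73404137-73404286 and the second from chr4:73436071-73436220. Capitals mark matches on either strand to a TATA box (TATAAA) and to CCAAT, read as ATTGG on the minus strand.
ALB: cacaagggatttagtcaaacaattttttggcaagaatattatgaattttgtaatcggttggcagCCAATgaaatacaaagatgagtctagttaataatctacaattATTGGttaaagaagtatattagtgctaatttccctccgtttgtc
AFP: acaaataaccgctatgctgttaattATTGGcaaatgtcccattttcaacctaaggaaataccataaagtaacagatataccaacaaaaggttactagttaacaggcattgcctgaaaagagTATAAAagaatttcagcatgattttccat
In ALB, CCAAT lay at positions 86 to 82 before the start and ATTGG at 44 to 40. In AFP, ATTGG lay at 125 to 121 and a TATA box at 29 to 24. Over 35116 RefSeq promoter windows of 250 bases before the start, TATAAA matched in 10.7% on either strand and CCAAT in 32.0%. AHSG and RBP4 also had promoter entries, and neither motif matched within the AHSG window. An RBP4 window had TATAAA at 31 to 26 before the start. Another RBP4 window had TATAAA at 225 to 220, its minus-strand reading at 227 to 222 and CCAAT at 149 to 145. These matches are descriptions of the letters and not sites of binding.

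Library totals ranged from 18167773 to 19583282 counts. Over the 12369 genes with enough counts for a test, 69.1% differed between the groups (edgeR quasi-likelihood test, Benjamini-Hochberg adjusted p under 0.05), 34.7% lower and 34.4% higher in sh-KIF11. Values below are CPM, counts scaled to library size with TMM factors, and FPKM, which also divides by transcript length, wherever levels of different genes are compared. Under TMM the median log2 change over all tested genes was 0.00, and with library totals alone it was 0.24, so log2 changes are read relative to those medians. KIF11 itself was at 1976, 2088 and 2039 counts in the controls and at 1448, 1478 and 1240 after knockdown, a log2 change of -0.75 (SE 0.0573, adjusted p = 4.22e-15).

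Of the 6 carrier genes, 5 were lower in sh-KIF11 and TTR did not pass the test, beside the 34.7% of all tested genes that were lower. The 6 genes and the lists below were chosen with earlier results of these data known. Counts set beside shares of all genes therefore describe them and test nothing. All 5 lower carrier genes fell by at least 1 on the log2 scale, which 3.52% of tested genes did. The same 5 had libraries that did not overlap between the groups, as did 71.2% of tested genes in either direction and 35.8% in the lower direction. The median log2 change of the 6 genes was -1.52. In bulk RNA a smaller number of expressing cells and less RNA per cell cannot be told apart. The plot of levels by library shows the gap in each gene.

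**Figure D1:**
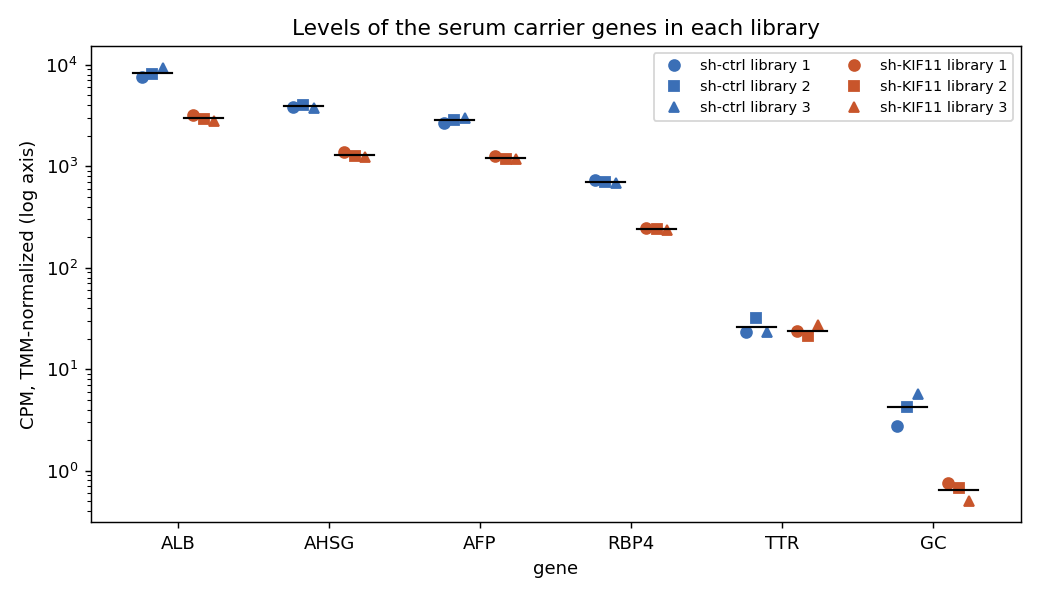
TMM-normalised CPM (log axis) of the 6 serum carrier genes, with 1 point for each of the 3 sh-ctrl (blue) and 3 sh-KIF11 (orange) libraries and a bar at each group mean. ALB, AHSG, AFP, RBP4 and GC sit lower in every sh-KIF11 library than in every sh-ctrl library, and the TTR points overlap.

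Markers of hepatocyte-like cells, hepatoma cells included, and of other cell types were read in the same libraries. All 7 hepatocyte-like markers apart from the carriers (APOA1, APOA2, APOB, SERPINA1, FGB, HNF4A and GPC3) were present and lower, beside 34.7% of all tested genes. Their median log2 change was -0.96. Their summed level ranged from 18061 to 20078 CPM in sh-ctrl and from 10501 to 11187 CPM in sh-KIF11. The sum of the biliary markers KRT7, KRT19 and SOX9 ranged from 355 to 370 CPM in sh-ctrl and from 773 to 883 CPM in sh-KIF11, where KRT19 rose by 2.34 on the log2 scale, SOX9 changed by -0.56 and KRT7 had at most 11 counts. The mesenchymal sum ranged from 93.4 to 97.6 CPM and from 186 to 198 CPM and was nearly all ACTA2, with COL1A1 at 6 counts or fewer and PDGFRB lower in sh-KIF11 (log2 change -1.16). The endothelial sum ranged from 3.10 to 3.56 CPM and from 4.69 to 4.98 CPM with CDH5 at 2 counts or fewer. The immune sum ranged from 77.1 to 87.7 CPM and from 41.3 to 46.0 CPM and was nearly all CD68, with PTPRC and CD3E at 3 counts or fewer. The part of these shifts in the fall of the carrier genes was not tested.

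ALB was among the most abundant transcripts of the control cells. Its FPKM of 3586 ± 334 (SD, n = 3) ranked 3rd of all genes in sh-ctrl, and its FPKM of 1417 ± 71.2 ranked 10th in sh-KIF11. In CPM the 3 sh-ctrl libraries measured 7623, 8107 and 9364, and the 3 sh-KIF11 libraries 3164, 2936 and 2811. No library of one group came near the other, although sh-ctrl 3 stood above the other controls and the control spread was 10.7% of the mean. Mean CPM was 2.82 times as high in sh-ctrl as in sh-KIF11, a log2 change of -1.49 (SE 0.0579, edgeR adjusted p = 7.28e-25, 95% interval -1.61 to -1.38).

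AFP, the fetal member of the family, was also lower in sh-KIF11. It measured 2650, 2846 and 2980 CPM in sh-ctrl and 1256, 1181 and 1165 CPM in sh-KIF11. The sh-KIF11 libraries lay close together and far under the lowest control. Mean CPM was 2.35 times as high in sh-ctrl, with a log2 change of -1.23 (SE 0.0506, edgeR adjusted p = 4.92e-24, 95% interval -1.34 to -1.13). Per length, AFP ranked 35th in sh-ctrl (1056 ± 43.1 FPKM, SD, n = 3) and 67th in sh-KIF11 (493 ± 18.9 FPKM).

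GC, the vitamin D carrier, is the scarce member of the family in these cells and showed the steepest fitted change of the 6 genes. The controls held 49, 77 and 97 GC counts, against 15, 14 and 10 after knockdown. That is 4.25 ± 1.5 CPM against 0.644 ± 0.124 CPM (SD, n = 3 each). The control libraries spread widely but each stayed above every sh-KIF11 library. The log2 change was -2.71 (SE 0.290, edgeR adjusted p = 6.78e-11, 95% interval -3.29 to -2.12), and only 20 tested genes had a lower value. This size depends on the scale at such low counts, since limma on log2(FPKM + 1) gave -1.04.

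Among the carriers outside the albumin family, AHSG and RBP4 fell by similar amounts. AHSG measured 3863, 4024 and 3734 CPM in sh-ctrl and 1393, 1250 and 1232 CPM in sh-KIF11, with no overlap. Its log2 change was -1.58 (SE 0.0518, edgeR adjusted p = 1.65e-27), from 1529 ± 58.8 to 587 ± 39.3 FPKM (SD, n = 3 each). RBP4, the plasma carrier of retinol, measured 733, 703 and 681 CPM in sh-ctrl and 248, 240 and 237 CPM in sh-KIF11. The RBP4 libraries of each group lay within a narrow band and the bands were far apart. Its log2 change was -1.55 (SE 0.0489, edgeR adjusted p = 7.26e-28), from 489 ± 15.7 to 197 ± 3.70 FPKM.

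TTR, the partner of RBP4 in plasma, did not show a change of this kind. It measured 23.4, 31.7 and 23.4 CPM in sh-ctrl and 23.6, 21.2 and 27.1 CPM in sh-KIF11. The groups overlapped, with sh-ctrl 2 as the highest library and sh-KIF11 2 as the lowest. The log2 change was -0.13 (SE 0.0960, edgeR adjusted p = 0.229) with a 95% interval of -0.32 to 0.06. Its sign turned with the scaling, to 0.10 with library totals alone (adjusted p = 0.340), and also without sh-ctrl 2 (0.04, adjusted p = 0.752). Without sh-KIF11 3 the value was -0.23 and passed the threshold (adjusted p = 0.0498).

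The order of levels per length was the same in both groups. In FPKM it ran ALB, AHSG, AFP, RBP4, TTR and GC, and in each group every gene's 3 libraries lay above those of the next gene. TTR ranked 2165th by FPKM in sh-ctrl and 2050th in sh-KIF11, and GC ranked 9400th and 11961st. Thus 4 of the 6 genes stood within the top 200 of 20030 genes in both groups, while TTR and GC were far down the list.

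Together the 6 genes took 1.38%, 1.45% and 1.55% of all counts among controls, against 0.657%, 0.610% and 0.594% with sh-KIF11. This share is taken of each library's total, with no TMM factor. The means were 1.46% ± 0.0844 and 0.620% ± 0.0325 (SD, n = 3 each), and the exact two-sided permutation test over libraries gave p = 0.1, the smallest value that 3 against 3 allows.

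The comparison of AFP with ALB asks whether the fetal and the adult gene moved to the same extent. The AFP count per ALB count was 0.348, 0.351 and 0.318 among controls, against 0.397, 0.402 and 0.414 with sh-KIF11. Every sh-KIF11 library was above every sh-ctrl library, and sh-ctrl 3, the library with the most ALB, had the lowest ratio. The mean went from 0.339 ± 0.0181 to 0.404 ± 0.00899 (SD, n = 3 each; exact two-sided permutation test, p = 0.1, the smallest possible). With each library's ALB count in place of its size in the edgeR fit, AFP rose relative to ALB by 0.25 on the log2 scale (SE 0.111, adjusted p = 0.0228, 95% interval 0.04 to 0.47). In that fit 97.9% of tested genes differed relative to ALB and 97.3% were higher, so a rise against ALB is what nearly every gene showed. The AFP call was lost without sh-ctrl 2 (0.28, adjusted p = 0.0535), without sh-KIF11 2 (0.26, adjusted p = 0.0785) and without sh-KIF11 3 (0.24, adjusted p = 0.0768).

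The remaining genes differed in how they moved against ALB. GC fell further than ALB, by 1.21 on the log2 scale (SE 0.316, edgeR adjusted p = 0.000141). In the fit relative to ALB, 0.566% of tested genes were lower and passed the threshold. TTR rose against ALB by 1.36 (SE 0.130, adjusted p = 2.20e-25). For RBP4 the difference from ALB was -0.06 (adjusted p = 0.580) with a 95% interval of -0.29 to 0.16, and it turned to 0.03 without sh-ctrl 1 (adjusted p = 0.798). For AHSG it was -0.10 (adjusted p = 0.352) with an interval of -0.32 to 0.11. Without sh-ctrl 3, where ALB was highest and AHSG lowest among the controls, the AHSG value was -0.21 and passed the threshold (adjusted p = 0.00861).

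**Figure D2:**
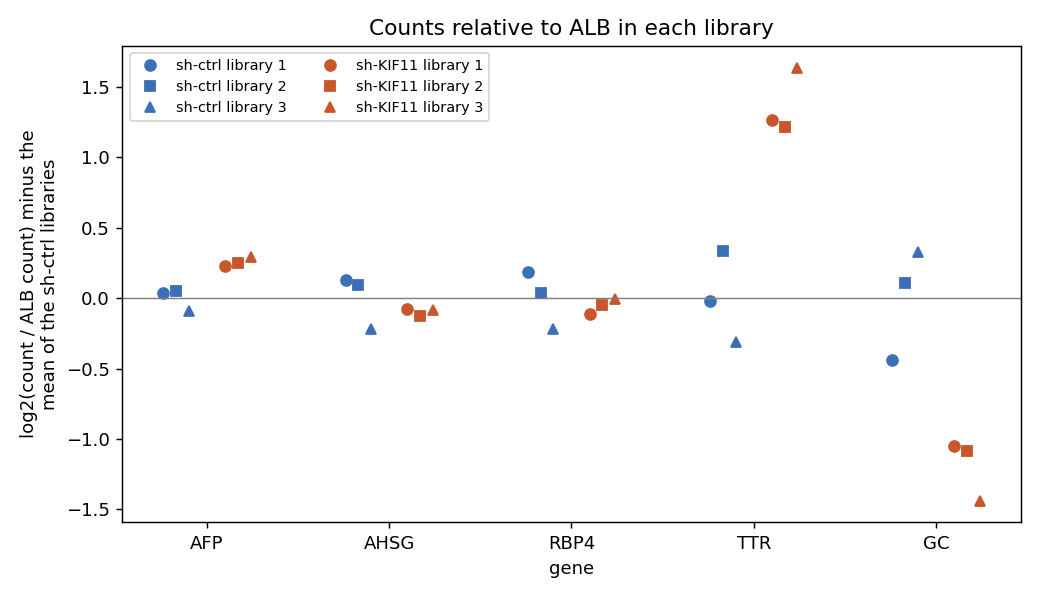
Log2 ratio of each gene's count to the ALB count in the 3 sh-ctrl (blue) and 3 sh-KIF11 (orange) libraries, centred on the sh-ctrl mean of that gene. AFP and TTR lie above the controls in every sh-KIF11 library and GC lies below, while AHSG and RBP4 overlap with the controls, whose ALB count was highest in library 3.

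Ratios that do not involve ALB were also taken. AHSG per RBP4 was 5.27, 5.73 and 5.48 in counts among controls, against 5.61, 5.21 and 5.19 with sh-KIF11, and the groups overlapped (exact two-sided permutation test, p = 0.5). RBP4 per TTR, the plasma partners, was 21.7, 15.7 and 20.8 in FPKM among controls, against 7.65, 8.26 and 6.29 with sh-KIF11. There the groups were far apart, with a log2 difference of -1.43 in counts and the smallest possible exact permutation p of 0.1. Of the 15 pairs among the 6 genes, 12 had ratios that did not overlap between the groups, and the exceptions were the 3 pairs among ALB, AHSG and RBP4. Ratios to ALB did not overlap for 97.6% of tested genes, and no such share was taken for pairs without ALB.

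The genes nearest in pattern were found over the 6 libraries as those with the smallest root mean square difference of log2 CPM, each gene centred on its own sh-ctrl mean, among the other genes that averaged 10 CPM or more (9391, and 9392 for GC). For ALB they were the fibrinogen chain gene FGG (0.0332), the bile acid receptor gene NR1H4 (0.0538) and the fibrinogen chain gene FGA (0.0606). AHSG had SNORC (0.0299), the antiplasmin gene SERPINF2 (0.0304) and the clusterin gene CLU (0.0422), and RBP4 shared SNORC (0.0426) and SERPINF2 (0.0488) with it, followed by SLC29A4 (0.0512). AHSG and RBP4 were each the 7th nearest gene of the other. AFP was nearest to MRPL11 (0.0415), PPARGC1A (0.0420) and the lactate dehydrogenase gene LDHA (0.0426). Among the 9391 genes compared with ALB, RBP4 was the 27th nearest, AHSG the 31st, AFP the 66th and TTR the 4355th. GC, whose counts are few, had looser neighbours in LYZ (0.258), CCL20 (0.295) and MT1G (0.300). TTR was nearest to CAPG (0.0742), FAM120C (0.0823) and MORN2 (0.0872).

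Other plasma carriers were looked at as a list of 18 genes, of which 17 had enough counts. In sh-KIF11 14 were lower and 1 was higher, with a median log2 change of -1.04, beside 34.7% lower and a median of 0.00 over all tested genes. With library totals alone 13 were lower and 2 higher. Transferrin (TF), the iron carrier, went from 4415, 4838 and 4496 CPM to 969, 936 and 918 CPM, a log2 change of -2.28. The copper protein ceruloplasmin (CP) changed by -2.08, A1BG by -2.62, the lipocalin APOM by -1.83 and haptoglobin (HP), which binds free haemoglobin, by -1.85. HP has a close paralogue with which reads can be confused, and so have ORM1 (-0.80) and ORM2 (-0.83), near-identical copies of orosomucoid.

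Carriers of the ligands that TTR and ALB also bind were lower too. Thyroxine binding globulin (SERPINA7) changed by -1.04, corticosteroid binding globulin (SERPINA6) by -1.17 and the sex steroid carrier SHBG by -1.51 on the log2 scale. SELENOP, which carries selenium, changed by -0.92 and AMBP by -0.35. Kininogen (KNG1) had a value of -0.21 (edgeR adjusted p = 0.224) and the cobalamin carrier TCN2 one of 0.68 (adjusted p = 0.0818). Afamin (AFM), the fourth gene of the albumin family and a vitamin E carrier, had 13, 9 and 9 counts among controls, against 36, 11 and 26 with sh-KIF11. Its groups overlapped, and the log2 change of 1.03 (adjusted p = 0.0196) was called by edgeR on all 6 libraries but not by DESeq2, nor without sh-ctrl 2, sh-ctrl 3, sh-KIF11 1 or sh-KIF11 3.

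**Figure D3:**
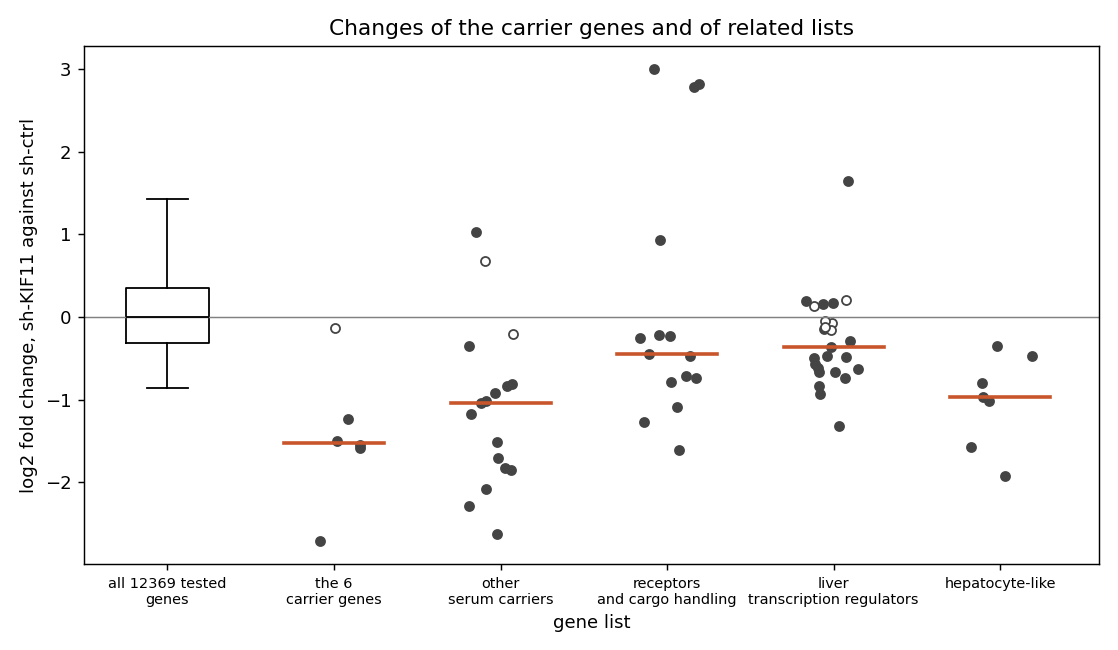
Log2 change in sh-KIF11 against sh-ctrl for single genes (filled points passed adjusted p under 0.05, open points did not) in 5 lists, with an orange bar at each list median, beside a box for all 12369 tested genes (quartiles, with whiskers at the 5th and 95th percentiles). The medians of the 6 carrier genes (-1.52) and of the other serum carriers (-1.04) lie under the median of all genes (0.00), and the open point among the carrier genes is TTR, whose sign turned under other scaling.

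The proteins that receive or process the cargo of these carriers formed another list. Of 20 listed genes 15 had enough counts, and 11 were lower and 4 higher in sh-KIF11, beside 34.7% lower and 34.4% higher over all tested genes, with a median log2 change of -0.44. With library totals alone 8 were lower and 4 higher. FCGRT, the Fc receptor that rescues albumin from degradation, was lower at 134, 133 and 127 CPM against 56.6, 54.8 and 51.9 CPM (log2 change -1.27). B2M, its light chain, changed by -0.23 (edgeR adjusted p = 0.000425), a call lost with library totals alone (adjusted p = 0.998). The asialoglycoprotein receptor genes ASGR1 (-1.09) and ASGR2 (-0.78) and the thyroxine deiodinase gene DIO1 (-1.60) were lower.

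Genes of vitamin D handling inside the cell differed in direction. CYP24A1, which breaks down active vitamin D, went from 12.4, 12.6 and 14.3 CPM to 88.0, 93.1 and 97.0 CPM (log2 change 2.82), and the vitamin D 25-hydroxylase gene CYP2R1 rose by 0.94. CYP27A1, another vitamin D hydroxylase of the liver, changed by -0.74. The retinol receptor STRA6, the vitamin D receptor VDR and the kidney receptor LRP2 had too few counts for a test.

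Transcription regulators of liver genes had a median change smaller in size than that of the carriers. Of 25 listed, 15 were lower and 4 higher in sh-KIF11, beside 34.7% lower and 34.4% higher over all tested genes, with a median log2 change of -0.36. With library totals alone 13 were lower and 8 higher. HNF4A had 323, 333 and 306 CPM among controls, against 230, 229 and 237 CPM with sh-KIF11, a log2 change of -0.47. FOXA3 changed by -0.93, FOXA2 by -0.62, CEBPA by -0.36, CEBPB by -0.63 and CEBPD by -1.32. FOXA1 had -0.07 (edgeR adjusted p = 0.223), which became 0.16 and passed the threshold with library totals alone (adjusted p = 0.00617).

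Under TMM, known repressors of AFP did not move in 1 direction. ZBTB20, a zinc finger repressor of AFP after birth, rose from 14.1, 16.7 and 13.04 CPM to 44.6, 45.7 and 47.6 CPM, a log2 change of 1.65 (SE 0.0842, edgeR adjusted p = 8.80e-21). No library of one group came near the other. ZHX2 had -0.05 (adjusted p = 0.472), which became 0.18 and passed the threshold with library totals alone (edgeR adjusted p = 0.0108). ZFHX3 changed by -0.29, or -0.05 with library totals alone (adjusted p = 0.432). With library totals alone, none of these repressors was called lower. Whether any of these regulators acted on the carrier genes was not tested.

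The genes around the carriers on the chromosomes were counted by taking the 5 protein-coding genes on either side of each. Of 44 distinct genes apart from the 6 carriers 29 had enough counts, and 20 of them differed, 13 higher and 7 lower in sh-KIF11, beside 69.1% of all tested genes. Their median log2 change was 0.12. Beside ALB, ANKRD17 had a value of -0.10 (edgeR adjusted p = 0.0620) and COX18 changed by -0.41. On the far side of AFP and AFM lies CXCL8, the chemokine interleukin-8, which rose from 5.71 to 30.6 CPM on average (log2 change 2.42). Next to AHSG, its paralogue FETUB had 9 to 24 counts and changed by -1.01, a call lost with library totals alone (-0.78, edgeR adjusted p = 0.0605), and DNAJB11 on the other side changed by -0.27. Near RBP4, MYOF rose from 0.786 to 18.4 CPM (log2 change 4.52).

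**Figure D4:**
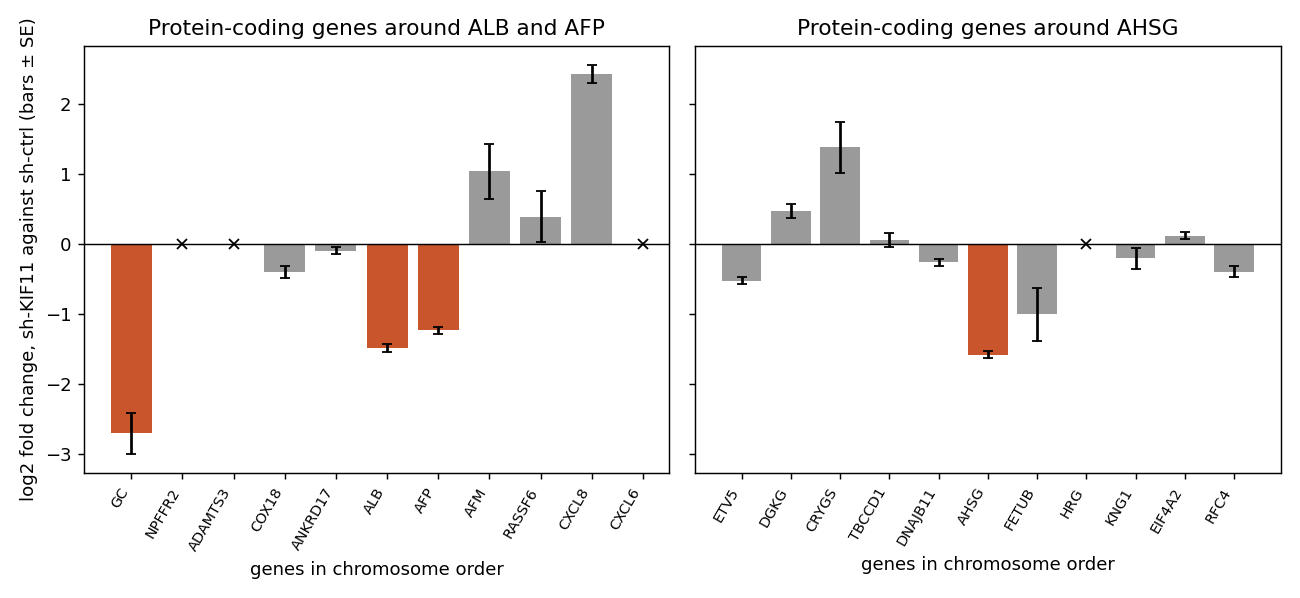
Log2 change in sh-KIF11 against sh-ctrl (bars with SE) of protein-coding genes in chromosome order around ALB and AFP (left) and around AHSG (right), with carrier genes in orange, other genes in grey and a cross for genes with too few counts. ALB (-1.49), AFP (-1.23) and AHSG (-1.58) are shown with their neighbours, whose values ran from -2.71 (GC, itself a carrier gene) to 2.42 (CXCL8).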

How the data were processed

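PolyA RNA of 3 sh-ctrl and 3 sh-KIF11 HepG2 libraries was prepared with a stranded kit and sequenced as paired ends. The authors deposited raw gene counts without normalisation and FPKM values scaled for length and depth. The submitters' processing notes name bcl2fastq 1.8.4, Trimmomatic, HISAT2 2.1.0, Cufflinks 2.2.1, HTSeq 0.9.1, DESeq and GRCh38. The annotation and the strand setting of counting were not given in the sources used here, so overlapping and near-identical genes are uncertain. Table columns named shRNA were taken as sh-KIF11, as KIF11 is the only shRNA target that the titles give. Annotation columns of the tables other than gene names were not used.

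Groups and replicate numbers came from the sample titles. The carrier genes and all gene lists were chosen with earlier results of these data known. Counts of 18167773 to 19583282 per library limit precision for GC and AFM. Genes were kept with filterByExpr (12369 kept, 7661 left out), scaled by TMM and fitted in edgeR 4.0.16 (R 4.3.3) by the quasi-likelihood test with group as the only term, two-sided, with Benjamini-Hochberg adjustment over all tested genes and a threshold of 0.05. SEs were derived from the test statistic. For changes relative to ALB, each library's ALB count replaced its size. Single values were compared with exact permutation tests over the 6 libraries (SciPy 1.17.1). The named genes were KIF11, the 6 carriers, genes of the fixed lists, the 5 coding neighbours on either side and the 3 genes nearest in pattern.

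Alternatives were RLE and upper-quartile scaling, library totals alone, other count filters, DESeq2 1.42.0, limma 3.58.1 on log2(FPKM + 1) and log2(FPKM + 0.1), a replicate block and leaving out each library. On data simulated for this comparison with 200 genes changed by 1 on the log2 scale among 12319, edgeR recovered 99.5% and called 11 others. Recovery with as large a share of genes changed as the 69.1% called between the groups was not tested. Promoter sequences came from RefSeq (GRCh38.p14), where 4 of the 6 genes matched. Some genes of the lists are counted but not reported by name here.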

Additional observations from a re-analysis of the deposited data

How the results depend on the processing

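Of 228 values recomputed under other settings for 17 results, 214 kept their direction and their side of the threshold, or stayed within 1.5 times for counts of genes and within 1 SD between replicates for the share of counts. The calls of ALB, AFP, AHSG, RBP4 and GC held in all 15 alternatives each, with ALB between -1.55 and -1.26, AFP between -1.27 and -1.004, AHSG between -1.64 and -1.35, RBP4 between -1.57 and -1.31 and GC between -2.94 and -1.04 on the log2 scale. The cause was not tested for any of the exceptions that follow. TTR turned positive with library totals alone (0.10), with limma on log2(FPKM + 1) (0.0722) and on log2(FPKM + 0.1) (0.0749), and leaving out 1 library moved it from -0.230 to 0.0376. RBP4 relative to ALB turned to 0.0258 with limma on log2(FPKM + 0.1) and ranged from -0.166 to 0.0320 with 1 library left out. AFP relative to ALB ranged from 0.21 to 0.28 and AHSG relative to ALB from -0.206 to -0.0417 with 1 library left out. The drop in the carriers' share of counts was -0.838 percentage points, and as a share of FPKM it was -1.09. With the 20 most abundant genes taken out of the denominator alone it was -0.945. ALB and AHSG are among those 20 and stayed in the numerator, so that value is a ratio and not a share.

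With the replicate number as a block, AFP relative to ALB was 0.26 and no longer passed (adjusted p = 0.110), and 8607 genes were called in place of 8548. The block changed no other call among these results. Same-numbered libraries deviated from their group means with correlations of 0.03, -0.018 and -0.0025, and not every library correlated best with its own number, so the numbers were not taken as pairs. Library totals alone gave 6621 genes higher and 2373 lower, against 4254 and 4294 with TMM. The few counts of GC and AFM limit what depth can show for them.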
